A study of Mus musculus with 8 samples.

Results

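The genes described here are the nuclear genes for mitochondrial ribosomal proteins, taken as every symbol in the count tables that begins with Mrpl or Mrps followed by a digit. This rule found 78 genes among the 24542 in the tables. TX1072 is a female mouse embryonic stem cell (ESC) line from a cross of C57BL/6 (B6) and Mus musculus castaneus (Cast), in which doxycycline (DOX) drives Xist from the B6 X chromosome. Total RNA was sequenced from WT TX1072 cells and from Hdac3KO cells, in which CRISPR/Cas9 had removed the histone deacetylase Hdac3, with no DOX (0 h) or after 24 h in DOX at 1 µg/ml. Each of the 4 groups (WT at 0 h, WT at 24 h, Hdac3KO at 0 h and Hdac3KO at 24 h) had 2 replicates. All cells carried the inducible Xist allele and grew in serum with LIF and 2i. WT replicates came from 1 line, whereas the Hdac3KO samples came from 2 independently derived clones, and the labels do not say which clone bears which replicate number. DOX, Xist RNA and a further 24 h of culture cannot be told apart, because no sample received DOX without the inducible allele.

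Mitochondria make their few genome-encoded respiratory chain subunits on a ribosome of their own, whose rRNAs are mitochondrial and whose proteins are all encoded in the nucleus and imported. The large subunit carries the peptidyl transferase centre and the exit tunnel, and the small subunit binds the mRNA and decodes it. Part of the proteins descend from bacterial ribosomal proteins, and the others are found only in mitochondrial ribosomes. Because a ribosome needs each protein in a fixed ratio, this gene family is a usual readout of coordinated expression of nuclear genes with mitochondrial products.

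By their known place, 51 of the 78 genes encode large subunit proteins and 26 small subunit proteins. Mrps30 and Mrps18a were counted with the large subunit, where their proteins sit in spite of their names. Mrps36 was kept under neither, since its protein belongs to the alpha-ketoglutarate dehydrogenase complex. Homologs of bacterial ribosomal proteins numbered 47, and 30 were specific to mitochondria. None of the 78 lies on the X chromosome, and 3 (Mrpl39, Mrpl40 and Mrps6) lie on chromosome 16.

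Promoter windows from RefSeq (build GRCm38.p6; 250 bases before to 50 after the annotated start) were matched for 69 of the 78 genes. In these windows, 4 short motifs known from promoters of nuclear genes for mitochondrial proteins were searched on both strands. They are CCGGAAG (bound by ETS factors such as GABPA), GCATGCG (NRF1), AAGATGG (YY1) and CACGTG (E-box). CCGGAAG was present in 25 of the 69 windows (36.2%), against 18.1% of the 10285 windows of all genes tested. For AAGATGG the figures were 13 windows (18.8%) against 7.34%, for GCATGCG 8 windows (11.6%) against 6.76%, and for CACGTG 5 windows (7.25%) against 10.4%. At least 1 motif occurred in 39 windows (56.5%), compared with 36.0% of the windows of tested genes. GCATGCG overlaps its own reverse complement, and such adjacent matches count here as 1 window. Mrps11 and Mrpl46 lie head to head on chromosome 7, and their windows share 141 bases. The stretches below run from 100 bases before the start and are 150 bases long, with matches in capitals. They belong to the 5 genes that were higher in Hdac3KO than in WT cells at 0 h (Mrpl1, Mrpl24, Mrps2, Mrps23 and Mrpl23) and to the 3 with the highest fold change upon DOX in WT cells (Mrps12, Mrps22 and Mrpl43).
Mrpl1 (chr5:96210015-96210164, plus strand): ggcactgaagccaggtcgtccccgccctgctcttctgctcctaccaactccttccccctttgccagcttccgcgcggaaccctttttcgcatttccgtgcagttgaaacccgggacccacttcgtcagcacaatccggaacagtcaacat
Mrpl24 (chr3:87919444-87919593, plus strand): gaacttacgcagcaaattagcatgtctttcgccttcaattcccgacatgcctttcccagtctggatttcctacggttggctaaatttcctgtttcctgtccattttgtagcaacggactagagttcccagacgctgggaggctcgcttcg
Mrps2 (chr2:28467966-28468115, plus strand): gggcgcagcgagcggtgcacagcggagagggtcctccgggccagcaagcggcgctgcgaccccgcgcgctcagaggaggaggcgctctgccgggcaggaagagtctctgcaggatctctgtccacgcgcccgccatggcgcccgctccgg
Mrps23 (chr11:88204288-88204437, plus strand): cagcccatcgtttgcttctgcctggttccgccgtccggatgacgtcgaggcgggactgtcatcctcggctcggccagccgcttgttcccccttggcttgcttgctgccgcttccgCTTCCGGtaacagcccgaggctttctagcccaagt
Mrpl23 (chr7:142532932-142533081, plus strand): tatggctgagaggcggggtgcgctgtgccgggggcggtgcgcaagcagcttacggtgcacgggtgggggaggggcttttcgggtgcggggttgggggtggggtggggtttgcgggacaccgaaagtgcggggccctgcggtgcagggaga
Mrps12 (chr7:28741772-28741921, minus strand): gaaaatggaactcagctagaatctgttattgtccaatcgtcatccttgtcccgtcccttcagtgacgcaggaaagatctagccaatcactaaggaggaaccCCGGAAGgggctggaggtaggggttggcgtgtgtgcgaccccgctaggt
Mrps22 (chr9:98601630-98601779, minus strand): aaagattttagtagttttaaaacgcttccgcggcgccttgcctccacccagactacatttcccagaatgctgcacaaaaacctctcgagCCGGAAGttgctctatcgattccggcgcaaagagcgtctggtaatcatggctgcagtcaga
Mrpl43 (chr19:45006393-45006542, minus strand): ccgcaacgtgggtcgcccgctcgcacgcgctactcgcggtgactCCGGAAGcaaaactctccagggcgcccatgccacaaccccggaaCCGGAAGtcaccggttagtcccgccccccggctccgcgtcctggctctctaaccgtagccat
Among the first 5, a match is found only in Mrps23, which holds CCGGAAG on the reverse strand, 15 bases past the start. The other 3 each hold CCGGAAG on the forward strand, and Mrpl43 holds it at both 56 and 12 bases before the start. These are matches of letters, and no factor binding was measured.

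Libraries held 6940375 to 17125156 counted read pairs, of which 23214 to 53620 fell on the 78 genes. Every gene of the family had reads in all 8 samples (48 to 3455 per gene and sample), so all 78 passed the filter on low counts and were tested among 13387 genes. Levels are given below as CPM (counts of a gene relative to the library's total count) after scaling by TMM, a method that sets libraries to a common level by their bulk of unchanged genes. As a check of the labels, Hdac3 was at 38.2 to 43.0 CPM in the WT samples and 5.55 to 7.45 CPM in the Hdac3KO samples. Xist was at 7.16 to 17.4 CPM in the samples without DOX and 1567 to 2054 CPM in those with DOX. Pou5f1, the master ESC factor, was at 468 to 588 CPM throughout. Summed over 5 primitive endoderm markers, the level was 10.8 to 12.2 CPM in WT and 15.2 to 27.0 CPM in Hdac3KO samples, most of it from Dab2 (7.07 to 8.99 CPM in WT, 10.7 to 21.3 CPM in Hdac3KO). Of these markers Pdgfra rose at 0 h, while Sox17 was at 0.799 to 1.05 CPM in WT and 0.0856 to 0.264 CPM in Hdac3KO samples. The sum over 5 fibroblast markers was 40.8 to 59.7 CPM in WT and 29.0 to 40.4 CPM in Hdac3KO samples, with Dcn and Postn at or near 0. The part of these markers in the results below was not tested.

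Genes of 1 ribosome differed widely in RNA level. In WT cells at 0 h, levels per transcript length (TPM, a unit of transcripts relative to all transcripts of the library) had a median of 48.9 and ran from 6.99 to 499 TPM, a 71.3-fold range. The middle of the distribution (the quartiles) lay between 31.3 and 93.1 TPM. The median over 13140 expressed genes with a known length was 18.2 TPM, and 72 of the 78 genes were above it.

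Mrpl42, a large subunit protein with no bacterial counterpart, was highest at 504 and 493 TPM in the 2 replicates. It was followed by Mrpl34, a small bacterial-type protein of the large subunit, at 282 and 311 TPM. Mrpl12, which forms the stalk that recruits translation factors, was at 254 and 283 TPM. These 3 did not overlap with Mrps2, a bacterial-type protein of the small subunit (225 and 228 TPM), or Mrpl52 (181 and 187 TPM), but the replicates of Mrpl34 and Mrpl12 overlapped each other. At the low end were the small subunit genes Mrps14 (6.24 and 7.74 TPM) and Mrps17 (7.25 and 7.10 TPM), whose replicates overlapped. Mrpl48 stood at 9.27 and 9.51 TPM, Mrpl3, whose protein lies close to the peptidyl transferase centre, at 14.7 ± 1.00 TPM (SD, n = 2), and Mrps25 at 15.4 ± 0.907 TPM. Only 17 of the 77 neighbouring pairs in this order were separated without overlap of the 2 replicates. The order also moved with the lengths used: with exons of all transcripts in place of the basic protein-coding ones, 3 of the top 5 and 3 of the bottom 5 genes stayed, and Mrpl42 moved from rank 1 to rank 8.

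**Figure D1:**
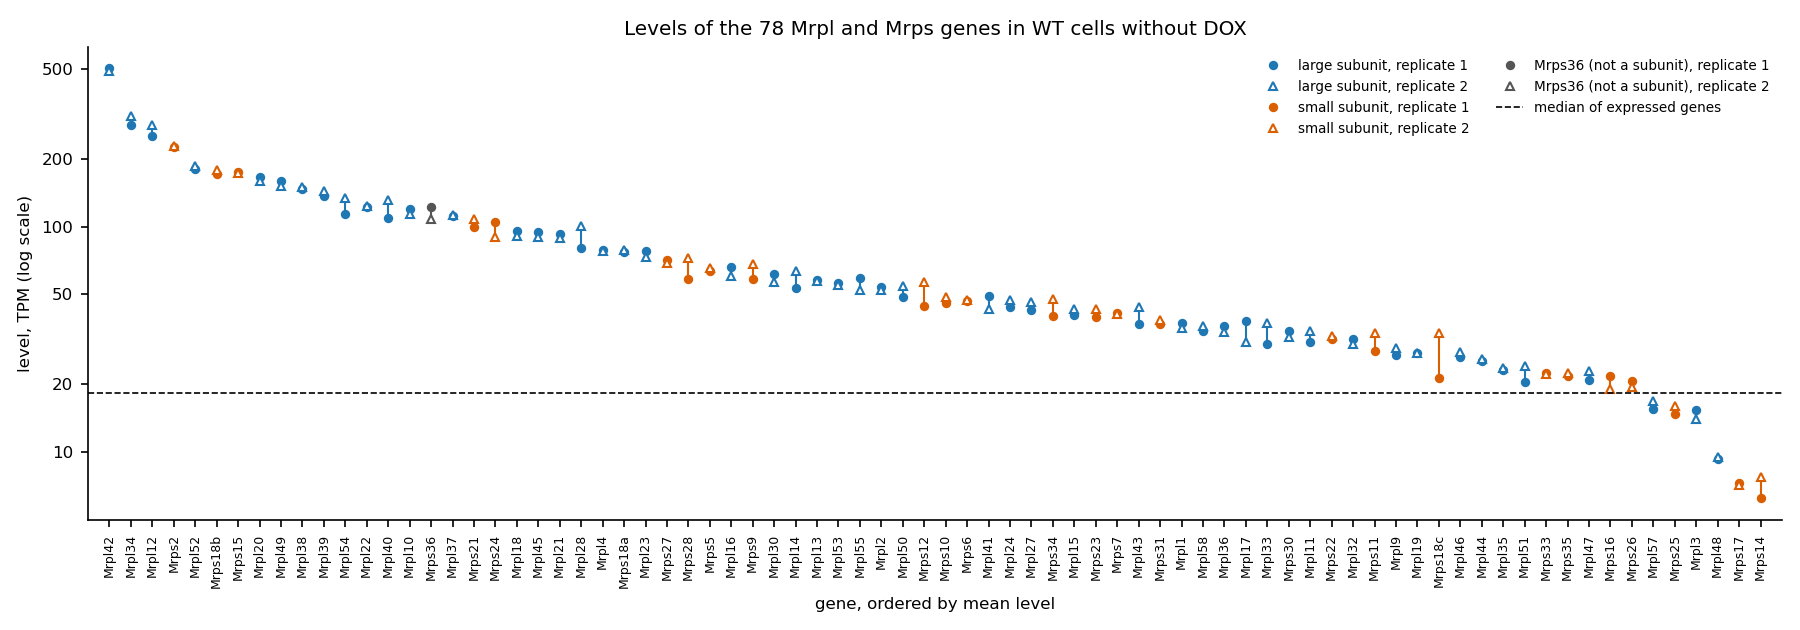
Level in TPM (log axis) of each of the 78 genes in the 2 WT replicates at 0 h, ordered by mean level and coloured by subunit, with a line joining the replicates and a dashed line at the median of expressed genes. Levels fall from about 499 TPM for Mrpl42 to 6.99 TPM for Mrps14, and 6 genes lie below the dashed line.

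The 3 Mrps18 genes are paralogs whose proteins occupy different places. Mrps18b, of the small subunit, was at 171 and 178 TPM, Mrps18a, of the large subunit, at 77.5 and 79.2 TPM, and Mrps18c, of the small subunit, at 21.2 and 33.6 TPM. Their order was Mrps18b, Mrps18a, Mrps18c with no overlap. Mrps36 was at 122 and 108 TPM, within the range of the true subunits, and Mrps30 at 34.4 and 32.3 TPM.

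Across the 8 samples the family was steady. The ratio of the highest to the lowest CPM had a median of 1.35 over the 78 genes, was below 1.5 for 60 of them and above 2 for 0. The gene with the widest range was Mrps12, which encodes a protein of the decoding centre, at 1.74-fold. For 8566 genes in the same range of CPM, the median ratio was 1.46.

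Summed over the family, expression was 2924 and 3130 CPM in WT at 0 h, 3188 and 3315 CPM in WT at 24 h, 3192 and 3283 CPM in Hdac3KO at 0 h, and 3060 and 3357 CPM in Hdac3KO at 24 h. The WT samples at 0 h were the lowest but for 1 sample, Hdac3KO at 24 h replicate 1, which was below the higher of them. Means differed by 7.39% upon DOX in WT cells and by 6.94% between Hdac3KO and WT cells at 0 h, both with an exact two-sided permutation p of 0.33, the smallest that 2 against 2 samples can give. The latter difference was 1.99% when libraries were scaled by total counts alone. Sums over cytosolic ribosomal protein genes and over nuclear genes for respiratory chain subunits rose by 9.06% and 8.53% upon DOX in WT cells. Upon DOX in Hdac3KO cells the mean of the family moved by −0.895% (0.443% by total counts), which is less than the gap between the 2 replicates. In such bulk samples, less RNA per cell and fewer cells that express a gene cannot be told apart. Small and large subunit genes kept their proportion: the ratio of their sums was 0.408 to 0.430 over the 8 samples.

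**Figure D2:**
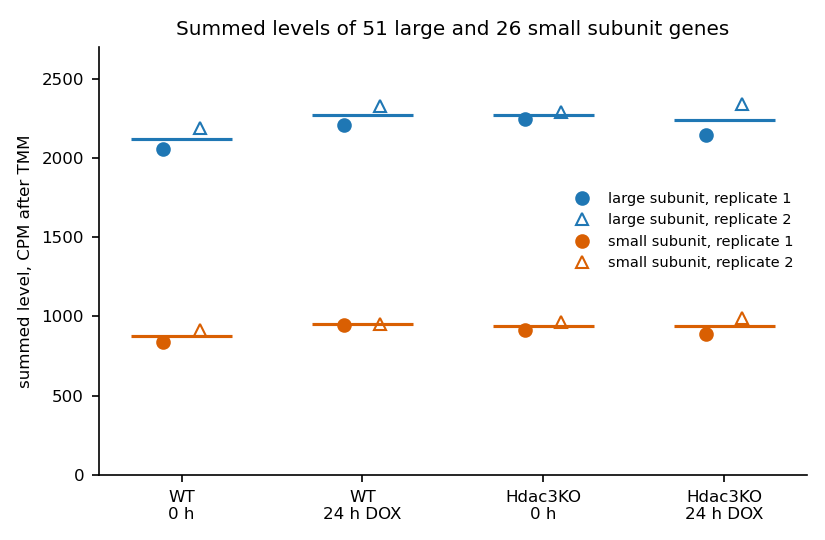
Summed CPM after TMM of the 51 large subunit genes (blue) and 26 small subunit genes (orange) in each sample, with circles for replicate 1, triangles for replicate 2 and lines for group means. The 2 sums move little and in parallel, with the WT means at 0 h the lowest of the 4 groups.

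The first comparison asked what 24 h of DOX did to the family in WT cells. No member passed the test: 0 of the 78 genes reached an adjusted p of 0.05 (edgeR quasi-likelihood test, Benjamini-Hochberg over all genes tested), with 4 at an unadjusted p under 0.05. Over all genes 0.209% were called (28 of 13387). DESeq2 and limma voom called 0 members as well. The median log2 fold change was 0.09 for the family and 0.00 over all genes, and 59 of the 78 values were positive. Such a small shift was not particular to the family. Cytosolic ribosomal protein genes had a median of 0.12 (75 of 83 positive), and nuclear genes for respiratory chain subunits 0.12 (71 of 81 positive). The 95% interval of the fold change lay within 2-fold for all 78 members and within 1.5-fold for 58.

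The largest value belonged to Mrps12, with 14.5 and 19.5 CPM at 0 h against 25.3 and 23.6 CPM at 24 h. The WT groups did not overlap, which adds no support, as the gene was picked on these samples. Its log2 fold change was 0.53 ± 0.17 (SE; adjusted p = 0.446, edgeR). For Mrps22, a small subunit protein specific to mitochondria, the samples were at 13.3 and 14.4 CPM before and at 18.1 and 18.7 CPM after DOX (0.41 ± 0.14, adjusted p = 0.513). For Mrpl43, a mitochondria-specific large subunit protein, they were at 18.2 and 22.8 CPM before and 24.3 and 28.8 CPM after (0.37 ± 0.15, adjusted p = 0.630). At the other end, Mrps18a went from 28.2 and 30.3 CPM to 23.8 and 23.4 CPM (−0.31 ± 0.14, adjusted p = 0.673). Mrpl3 (−0.29 ± 0.15) and Mrps35 (−0.16 ± 0.12) came next, and neither passed the test. By subunit, the median log2 fold change was 0.08 for large and 0.09 for small subunit genes.

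Same-numbered replicates deviated together, and the blocked values are therefore given. With the replicate number as a block over all samples, 0 members were called upon DOX in WT cells (1.34% of all genes). With a block within each genotype, an alternative chosen after seeing the data, 7 of the 78 members were higher upon DOX in WT cells. They were Mrps2, Mrps15, Mrps12, Mrps22, Mrps18b, Mrpl49 and Mrpl43. Over all genes 4.28% were called higher. Of the members 0 were lower, beside 764 of 13387 genes. In that fit the log2 fold change of Mrps12 was 0.55 ± 0.13.

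In Hdac3KO cells, the same 24 h of DOX gave 0 calls among the 78 genes, also at an unadjusted p under 0.05, and 0 by DESeq2 and limma voom. Over all genes 0.0224% were called. The median log2 fold change was −0.01 with 35 positive values (0.01 with 45 positive when libraries were scaled by total counts alone), and all 78 intervals lay within 2-fold, 72 of them within 1.5-fold. Mrpl33, a small bacterial-type protein of the large subunit, had the highest value, with 5.54 and 6.51 CPM at 0 h and 7.22 and 8.05 CPM at 24 h (0.35 ± 0.22, adjusted p = 1, edgeR), followed by Mrps14 (0.21 ± 0.26) and Mrps33 (0.16 ± 0.18). Mrpl50, mitochondria-specific and of the large subunit, had the lowest, with 37.9 and 41.9 CPM against 32.8 and 33.7 CPM (−0.26 ± 0.12, adjusted p = 1, edgeR), followed by Mrpl53 (−0.21 ± 0.24) and Mrps6 (−0.20 ± 0.25). Mrps12, highest in WT cells, stood at 20.5 and 24.2 CPM before and 22.8 and 24.9 CPM after DOX here. With the block within each genotype, 0 members were called and 2 were at an unadjusted p under 0.05 (224 of 13387 genes called). With the replicate number as a block over all samples, 0 were called and 1 was at an unadjusted p under 0.05 (13 of 13387 genes called).

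The difference between the genotypes in response to DOX was tested as an interaction. It gave 0 calls among the members, 0 of them at an unadjusted p under 0.05 and 0 by DESeq2 or limma voom, while 0% of all genes were called. The median of the interaction was −0.09, which for Mrps12 was −0.43 ± 0.24 and for Mrps22 −0.39 ± 0.20 (both adjusted p = 1, edgeR). For cytosolic ribosomal protein genes the median was −0.13, and for respiratory chain subunits −0.09. With the block within each genotype, 0 members were called, but 12 were at an unadjusted p under 0.05 (153 of 13387 genes called). With the replicate block over all samples, 0 members were called and 5 were at an unadjusted p under 0.05 (0 of 13387 genes called).

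**Figure D3:**
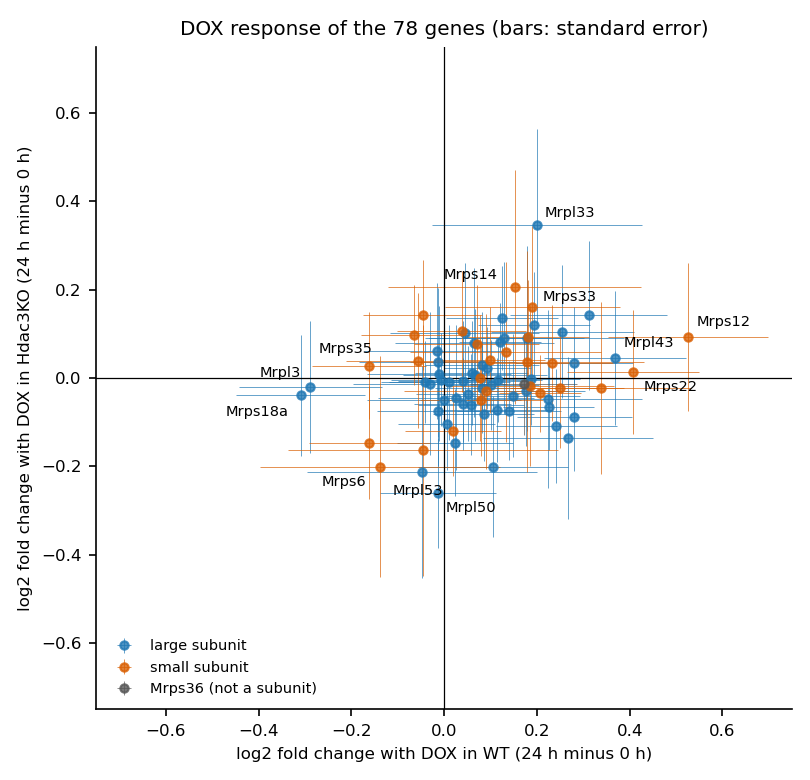
Log2 fold change upon DOX in WT cells (horizontal) and in Hdac3KO cells (vertical) for each of the 78 genes, coloured by subunit, with bars of 1 standard error; the 3 highest and 3 lowest genes in each genotype are named. The genes crowd around 0, with Mrps12 farthest to the right at 0.53 and Mrpl33 highest at 0.35, and none passed the test.

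Loss of Hdac3 before DOX was the comparison with the most calls. At 0 h, 5 of the 78 genes rose in Hdac3KO cells and 0 fell (12 at an unadjusted p under 0.05). Over all genes 15.6% were called, 7.2% higher and 8.36% lower, so that the family held no larger share of higher genes than the background. The median log2 difference was 0.06 for the members and −0.01 over all genes, and with total counts alone it was −0.01 and −0.08. Of the 78 values 52 were positive, and 36 with total counts alone. Since the same WT samples at 0 h served this comparison and that of DOX in WT cells, the 2 sets of values are not independent.

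Mrpl1, a homolog of the bacterial protein of the L1 stalk by which used tRNA leaves (chr5:96209493-96266727), was at 56.4 and 56.2 CPM in WT and 74.6 and 82.0 CPM in Hdac3KO cells at 0 h. Groups were well apart, with a 1.39-fold difference (log2 0.47 ± 0.09, adjusted p = 0.0118, edgeR). Mrpl24, a bacterial-type protein that takes part in early assembly of the large subunit (chr3:87919506-87923672), was at 23.9 and 27.2 CPM in WT and 33.9 and 37.7 CPM in Hdac3KO cells (0.49 ± 0.12, adjusted p = 0.0293). Mrps2, of the small subunit (chr2:28468066-28471178), was at 164 and 175 CPM against 206 and 222 CPM (0.33 ± 0.09, adjusted p = 0.0359). Every Hdac3KO sample of these genes at 0 h exceeded both WT samples, which adds no support, as the test picked the genes on these samples. Mrps23, a small subunit protein specific to mitochondria (chr11:88204388-88211507), was at 19.9 and 22.8 CPM against 29.3 and 29.9 CPM (0.47 ± 0.13, adjusted p = 0.0399). Mrpl23, found at the mouth of the exit tunnel (chr7:142532686-142540747), was at 26.3 and 26.1 CPM against 37.1 and 33.1 CPM (0.42 ± 0.12, adjusted p = 0.0438). Of the 5, 3 encode large and 2 small subunit proteins, and 4 are of bacterial type. The fold changes, 1.26 for Mrps2 to 1.40 for Mrpl24, were modest.

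These calls stood close to the threshold. Most or all of them lost the threshold when 1 sample of a compared group was left out, and calls then fell over all genes as well. In such fits the remaining lone sample is taken to vary like the other groups, so effect sizes are given. The family median was 0.02 without WT at 0 h replicate 1 and 0.15 without WT at 0 h replicate 2. It was 0.10 without Hdac3KO at 0 h replicate 1 and 0.06 without Hdac3KO at 0 h replicate 2. DESeq2 called Mrpl1 and Mrps2 (6.44% of all genes called higher). With the replicate number as a block, 9 members were higher and 0 lower (14.1% and 15.5% of all genes), the 5 above together with Mrpl15, Mrpl37, Mrpl35 and Mrpl39.

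At 24 h, Mrpl1 alone passed, with 52.9 and 56.7 CPM in WT and 79.6 and 75.9 CPM in Hdac3KO cells (1.42-fold, log2 0.51 ± 0.10, adjusted p = 0.0114, edgeR). Over all genes 13.9% were called (6.57% higher, 7.31% lower), and 9 members were at an unadjusted p under 0.05. Without either WT sample at 24 h, Mrpl1 no longer passed, and calls fell over all genes as well. Among the other 4, Mrpl23 differed by 0.37 ± 0.12 (adjusted p = 0.0740) and Mrps23 by 0.34 ± 0.13 (adjusted p = 0.124) in edgeR. Mrpl24 (0.12 ± 0.12) and Mrps2 (0.09 ± 0.09) were closer in the 2 genotypes than at 0 h, their WT samples having 31.6 and 30.4 CPM and 196 and 196 CPM at 24 h. The family median was −0.01. With the replicate block 7 members were called, of which Mrpl1, Mrpl23 and Mrps23 were higher (12.7% of all genes) and Mrps28, Mrpl34, Mrpl12 and Mrps34 lower (13.3%). Mrps34 had the lowest value of the family, with 18.1 and 18.7 CPM in WT and 12.2 and 13.6 CPM in Hdac3KO cells (−0.51 ± 0.20, adjusted p = 0.119 without the block).

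**Figure D4:**
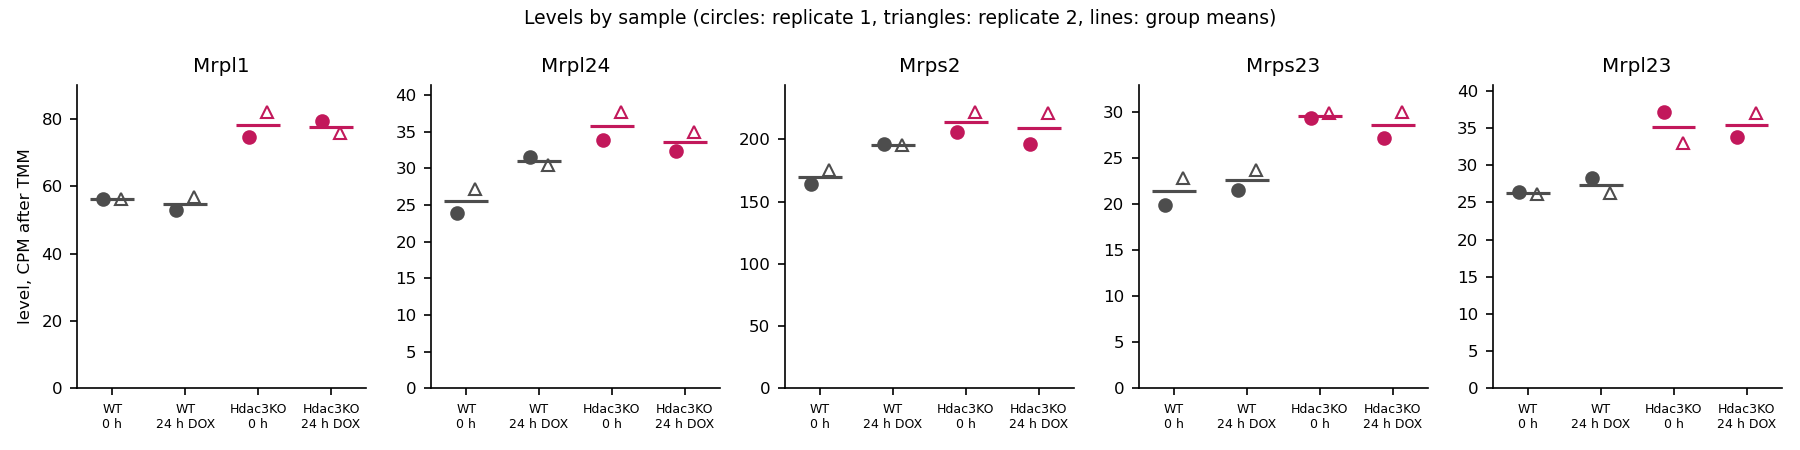
CPM after TMM of Mrpl1, Mrpl24, Mrps2, Mrps23 and Mrpl23 in each of the 8 samples, grey for WT and red for Hdac3KO, with circles for replicate 1, triangles for replicate 2 and lines for group means. Mrpl1 keeps the same gap at both times, whereas WT levels of Mrpl24 and Mrps2 at 24 h lie nearer those of Hdac3KO cells.

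Other genes of the same pathway were described alongside. Of the 5 ribosomal proteins named outside the symbol rule, 1 rose in Hdac3KO cells at 0 h: Ptcd3, of the small subunit (127 and 123 CPM in WT, 153 and 193 CPM in Hdac3KO). Of 24 genes for assembly and rRNA modification, 1 rose at 0 h, the assembly GTPase Gtpbp10 (18.9 and 14.3 CPM against 30.4 and 32.5 CPM, log2 0.92 ± 0.15, adjusted p = 0.00617, edgeR). At 24 h Gtpbp10 (1.05 ± 0.16) and Tfb1m (0.64 ± 0.18), which methylates the small subunit rRNA, were higher. Of 15 translation factors 1 rose at 0 h (Mtfmt, which formylates the initiator tRNA, 0.59 ± 0.16) and 0 passed at 24 h. Of 20 mitochondrial aminoacyl-tRNA synthetases 0 passed at 0 h (4 at an unadjusted p under 0.05), and Yars2 (−0.69 ± 0.16) and Aars2 (−0.61 ± 0.17) were lower at 24 h. Of 11 biogenesis regulators 0 passed at either time. In both DOX comparisons and in their interaction, 0 genes of these lists were called.

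Cytosolic ribosomal proteins and respiratory chain subunits give a scale for these counts. Of 83 cytosolic ribosomal protein genes tested, 31 (37.3%) rose and 0 fell in Hdac3KO cells at 0 h, with a median log2 difference of 0.24, beside 5 of 78 (6.41%) and 0.06 for the mitochondrial ones. At 24 h the counts were 10 of 83 and 1 of 78. The median standard error at 0 h was 0.08 for the cytosolic and 0.13 for the mitochondrial genes, so that smaller differences could pass in the former, and the difference between the families was not tested. Of 81 nuclear genes for respiratory chain subunits, which use the products of mitochondrial translation as partners, 6 (7.41%) rose at 0 h and 2 at 24 h, with medians of 0.06 and −0.04. Per length in WT cells at 0 h, the median level was 1303 TPM for cytosolic ribosomal proteins and 123 TPM for respiratory chain subunits, against 48.9 TPM for the family.

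Reads that covered a SNP between the strains were counted per allele, which gave a B6 share (the d-score of the deposited tables) for each gene. With at least 10 allelic reads in all 8 samples, 71 of the 78 genes could be followed (13 to 1685 allelic reads per sample). The other 7, Mrpl30, Mrps14, Mrps21, Mrpl22, Mrps36, Mrpl2 and Mrpl21, had fewer in some sample. No shift of the share upon DOX passed the test, with 0 of 71 members called in WT cells (0 at an unadjusted p under 0.05, 1.61% of 9595 genes called) and 0 in Hdac3KO cells (3 at an unadjusted p under 0.05, 0.406% called), by edgeR on the allelic counts. The median share of the members was 0.487 to 0.516 in the 8 samples.

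Between the alleles themselves many members differed. In WT cells 29 of the 71 genes were unequal, 15 toward B6 and 14 toward Cast, a share of 40.8% beside 42.6% of all genes. The 14 include the chromosome 16 genes Mrpl39 (−0.90), Mrpl40 (−0.91) and Mrps6 (−0.80; log2 of B6 over Cast). Chromosome 16 as a whole had a median B6 share of 0.332 to 0.341 in WT samples, as described below. Imbalance beyond 2 to 1 was found in 6 of the 29 (20.7%), beside 31.4% of all unequal genes. The 4 Hdac3KO samples, which the WT test of the alleles did not use for its contrast, all lay on the same side for 23 of the 29 (79.3%), beside 78.6% of all unequal genes.

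Mrps27, a pentatricopeptide repeat protein of the small subunit, leaned most toward Cast, with a B6 share of 0.261 and 0.229 in WT at 0 h and 0.221 and 0.215 at 24 h (log2 of B6 over Cast −1.73 ± 0.09, adjusted p = 1.09e-10, edgeR). Its Hdac3KO samples were at 0.228, 0.252, 0.293 and 0.308. Next came Mrps9, at a mean of 0.331 ± 0.030 (SD, n = 4 WT samples), and the chromosome 16 genes Mrpl40 and Mrpl39, described below, then Mrpl57 at 0.351 ± 0.062. Mrps12 had the highest mean B6 share over the 4 WT samples, with 0.711 and 0.668 in WT at 0 h and 0.681 and 0.705 at 24 h (1.15 ± 0.12, adjusted p = 3.04e-07, edgeR). Its Hdac3KO samples lay at 0.587 to 0.654. That they were below all WT samples adds no support, as the gene was picked for its high WT share. At 0 h the difference between the genotypes did not pass the test (log2 −0.25 ± 0.22, adjusted p = 0.82, edgeR). Mrpl50 (0.685 ± 0.043), Mrpl51 (0.684 ± 0.051), Mrpl33 (0.677 ± 0.114) and Mrpl55 (0.663 ± 0.034) followed in mean share, and with reads weighted in the fit Mrpl33 was slightly above Mrps12 (log2 of B6 over Cast 1.16 ± 0.33). Mrpl51 shares exon sequence on its own strand with the microRNA gene Mir3098. Among the 5 genes higher in Hdac3KO cells, Mrpl1 was balanced in all samples, at 0.476 to 0.521. Mrpl24 (0.52 ± 0.15, adjusted p = 0.00963) and Mrps23 (0.56 ± 0.15, adjusted p = 0.00553) were unequal toward B6 in WT by log2 of B6 over Cast in edgeR, and Mrps2 (0.09 ± 0.09) and Mrpl23 (0.03 ± 0.16) did not pass.

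**Figure D5:**
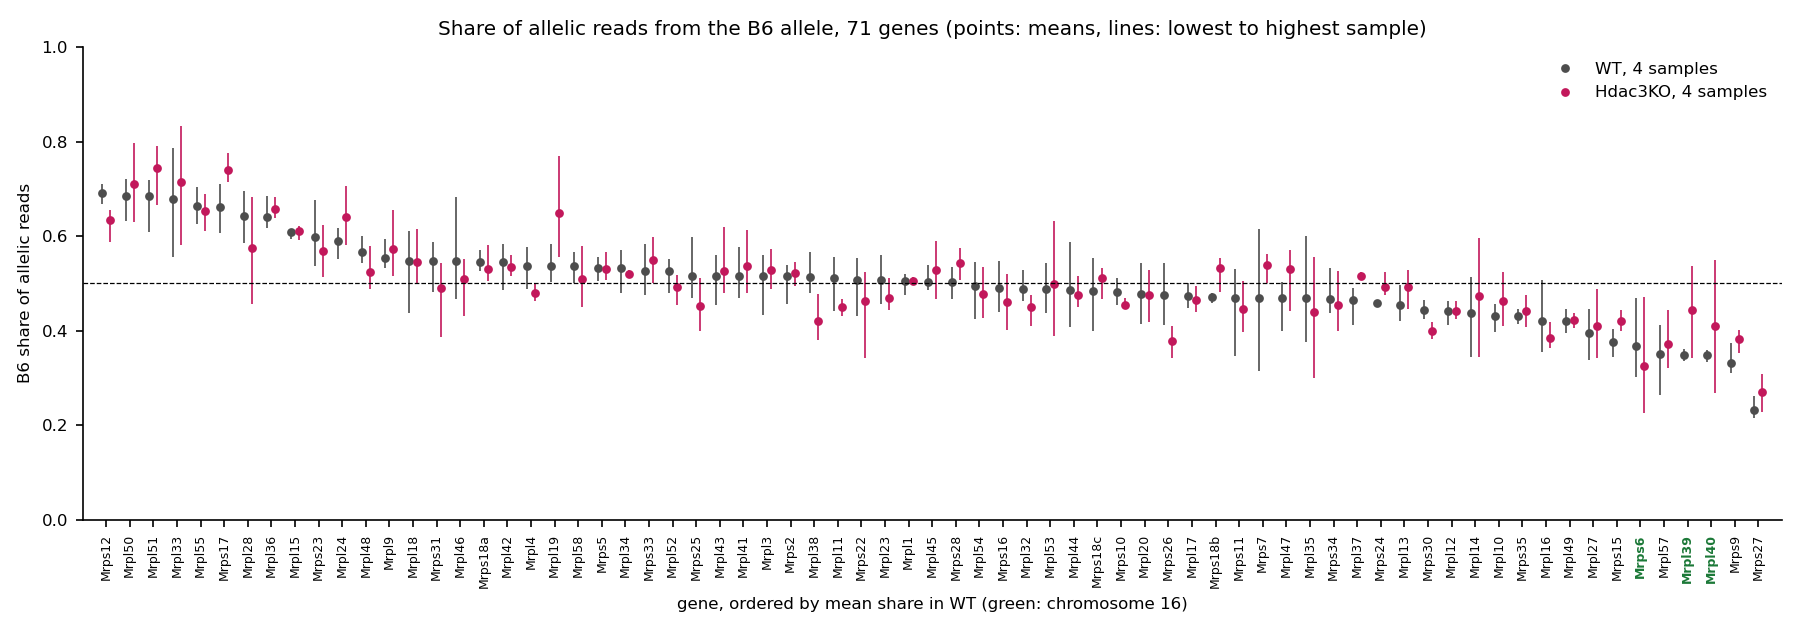
B6 share of allelic reads for 71 genes, ordered by their mean in WT, with the mean (point) and the lowest to highest sample (line) of 4 WT (grey) and 4 Hdac3KO (red) samples; genes on chromosome 16 are in green. Most genes lie near 0.5, Mrps12 has the highest and Mrps27 the lowest WT mean, and Mrpl39 and Mrpl40 have short WT lines and long Hdac3KO lines.

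The long lines of Mrpl39 and Mrpl40, large subunit proteins specific to mitochondria, follow the replicate number. Mrpl39 (chr16:84717576-84735742) had a B6 share of 0.336, 0.341, 0.357 and 0.362 in the WT samples, 0.378 and 0.343 in Hdac3KO replicate 1 at 0 and 24 h, and 0.537 and 0.516 in Hdac3KO replicate 2. Mrpl40 (chr16:18872018-18876862) had 0.332 to 0.360 in WT, 0.268 and 0.331 in Hdac3KO replicate 1, and 0.548 and 0.489 in replicate 2. The whole chromosome showed this: the median share over 307 genes of chromosome 16 was 0.332 to 0.341 in WT, 0.33 at both times in Hdac3KO replicate 1, and 0.500 and 0.493 in replicate 2, while other autosomes had 0.505 to 0.508. The median level of chromosome 16 genes, as log2 against WT at 0 h, was −0.44 and −0.45 in Hdac3KO replicate 2 and −0.03 and −0.03 in replicate 1.

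Levels of the 3 chromosome 16 genes are therefore given by replicate. Mrpl40 was at 50.2 to 68.1 CPM in WT, 60.2 and 59.5 CPM in Hdac3KO replicate 1, and 39.4 and 46.9 CPM in replicate 2, below every WT sample. Mrps6, a bacterial-type small subunit protein (chr16:92058270-92112227), was at 13.9, 14.8, 12.99 and 13.1 CPM in WT, 19.7 and 16.4 CPM in replicate 1, and 12.1 and 11.4 CPM in replicate 2. Mrps6 shares exon sequence on its own strand with Slc5a3, and its B6 share ran from 0.226 to 0.471. Mrpl39 stayed above WT (110 to 128 CPM) in both replicates, at 143 and 154 CPM in replicate 1 and 136 and 141 CPM in replicate 2. In fits of all 8 samples without the block, no test of these genes between Hdac3KO and WT passed, in level or, at 0 h, in B6 share. Without Hdac3KO at 0 h replicate 1, the log2 difference of Mrpl39 in B6 share was 1.18 ± 0.23. In B6 share at 0 h, 0 of 71 members passed (4 at an unadjusted p under 0.05, 0.667% of all genes called), and with the replicate block 1 did, Mrpl39 (log2 difference 0.70 ± 0.17). The part of chromosome 16 in the genotype differences of these genes was not tested.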

How the data were processed

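RNA-seq of 8 libraries was analysed from the tables the authors deposited. The authors removed rRNA reads, mapped the rest with TopHat2 2.1.0 and counted exonic read pairs by strand with featureCounts 1.5.1 (build mm10). The deposited files hold raw counts per gene (all, B6 and Cast reads) and the B6 fraction for genes with at least 10 allelic reads, which was recomputed from the counts and differed by at most 5e-07.

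Genes above 1 CPM in at least 2 samples were tested with edgeR 4.0.16 (TMM, quasi-likelihood, 4 group means, all 8 samples; 4 residual degrees of freedom) in R 4.3.3. Alleles were compared in edgeR with a term per sample. Thresholds were adjusted p under 0.05, Benjamini-Hochberg over all genes. DESeq2 1.42.0, limma 3.58.1 (voom), other scalings and filters, and omission of each sample were alternatives. Scripts were tested on simulated data. TPM used GENCODE M21 exon lengths (GRCm38, the build of mm10), so 660 symbols without a match have no TPM. Promoter windows came from RefSeq.

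Members and gene lists were chosen with earlier results of these data known. Genes named are those past a threshold (at most 10 per comparison, at most 5 per list), the 5 highest and 5 lowest levels and B6 shares in WT, the 3 highest and 3 lowest changes upon DOX, and genes of chromosome 16, Mrps18a to Mrps18c, Mrps30 and Mrps36. Genes named only because an alternative called them, such as Mrps34 and Mrpl19, were added after their values were seen. Same-numbered replicates deviated together: the correlation of deviations from group means over 13387 genes was 0.188 to 0.297 between groups, and 0.65 between the 2 Hdac3KO groups. The labels do not state what the numbers mark. Over all genes with enough reads, the variance between replicates of a group was 3.94 to 12.9 times that of sampling noise (chi-square per degree of freedom). The study calls the replicates biological, but nothing says whether those of WT were separate cultures. Of the family, 26 genes overlap exons of an annotated gene on the opposite strand, 20 of them of a gene in the count tables.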

Additional observations from a re-analysis of the deposited data

How the results depend on the processing

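Members called in Hdac3KO against WT at 0 h (5) numbered 2 with DESeq2, 2 with total counts only, 9 with the replicate block, and 1 in a fit of the 4 samples compared. Calls over all genes (2083) numbered 1791, 2192, 3950 and 1827 in these alternatives, in the same order. At 24 h (1) members called numbered 2 with total counts only, 2 with no filter on low counts, and 7 with the replicate block. Calls over all genes (1859) numbered 1881, 2939 and 3483 there. With 1 sample of a compared group left out, most or all of the members called at 0 h lost the threshold. At 24 h Mrpl1 lost it without either WT sample. Fewer genes were then called over all genes as well. For DOX in WT (0) the block within each genotype gave 7. Allelic calls between Hdac3KO and WT at 0 h (0) were 1 with the replicate block and 0 to 1 with 1 sample left out: Mrpl39 without Hdac3KO at 0 h replicate 1, Mrpl19 without replicate 2. Genes unequal between alleles in WT (29) numbered 19 to 29 with 1 sample left out, the lowest without WT at 24 h replicate 1. With the replicate block the last count was 28, beside 4219 of 9595 genes. In the other summaries the block moved no count of calls.

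With 1 sample left out, the median log2 fold change of the family ran from 0.0432 to 0.138 for DOX in WT, −0.101 to 0.0557 for DOX in Hdac3KO, −0.2 to −0.0428 for the interaction, 0.0221 to 0.147 for Hdac3KO against WT at 0 h and −0.105 to 0.0685 at 24 h, beside a replicate spread of 0.0458. With total counts only, the family median at 0 h was −0.00686 and that of all genes −0.08. The cause was not tested. Of alternatives for the summaries, 149 left a count of calls the same or close to it, or a median within the replicate spread. A further 11 moved a median by more, 12 made fewer calls and 8 made more. The sign of a median was not part of this rule. For DOX in Hdac3KO cells the family median was −0.0085, and 0.0112 with total counts only. For named genes, 158 alternatives kept the direction and the threshold, 38 kept the direction but lost the threshold, and 0 reversed the direction. For single members the 95% intervals lay within 2-fold in the 4 comparisons of groups, and for 77 of 78 in the interaction. Over all genes, replicates differed by more than sampling noise, so depth was not the only limit there. For the members alone this was not computed.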

Other observations

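Most lists of genes described here showed more calls between the genotypes than upon DOX, as did all genes. Among biogenesis regulators and fibroblast markers, 0 genes were called in any comparison. Over all genes, 15.6% were called between the genotypes at 0 h and 13.9% at 24 h. Upon DOX the shares were 0.209% in WT and 0.0224% in Hdac3KO cells. Of 11 targets of the integrated stress response tested, which answers among others to disturbed mitochondrial protein synthesis, 5 rose in Hdac3KO cells at 0 h and 5 at 24 h, and 0 fell, beside 7.2% and 6.57% of all genes called higher. Mthfd2, a mitochondrial folate enzyme, was at 80.3 and 80.4 CPM in WT and 218 and 145 CPM in Hdac3KO cells at 0 h (log2 1.18 ± 0.23, adjusted p = 0.0114, edgeR), with replicate 1 above replicate 2. Asns, which makes asparagine, was at 609 and 589 CPM against 889 and 864 CPM (0.55 ± 0.08, adjusted p = 0.00269). Atf4, the transcription factor of this response, was at 257 and 234 CPM against 337 and 307 CPM (0.39 ± 0.08, adjusted p = 0.0164), while Chac1 and Sesn2 rose by 0.78 and 0.47 on the log2 scale. At 24 h the genes called were Mthfd2, Chac1, Sesn2, Asns and Psat1, and Atf4 was not among them (0.20 ± 0.08, adjusted p = 0.149).

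Of 12 mitochondrial chaperones and proteases, 2 rose at 0 h and 1 at 24 h, beside 7.2% and 6.57% of all genes called higher. Hspa9, the mitochondrial Hsp70, was at 604 and 620 CPM in WT and 839 and 822 CPM in Hdac3KO cells at 0 h (0.44 ± 0.06, adjusted p = 0.00345, edgeR) and rose at both times. Htra2, a protease of the intermembrane space, was at 14.1 and 18.5 CPM against 39.5 and 24.4 CPM (0.98 ± 0.28, adjusted p = 0.0477), again with replicate 1 above replicate 2. Of 8 embryonic stem cell markers, Nanog and Zfp42 rose in Hdac3KO cells at both times (0.66 and 0.69 at 0 h). In both DOX comparisons, 0 genes of these lists passed the edgeR test, with 2 stress response genes and 1 stem cell marker in WT and 1 chaperone or protease in Hdac3KO cells at an unadjusted p under 0.05.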
